A study of Mus musculus with 13 samples.

Results

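Brown adipose tissue (BAT) of Fv2E-PERK transgenic mice was compared between animals given AP20187 and animals given its vehicle, on 4 of the 13 arrays of the study. Fv2E-PERK is a PERK kinase that dimerises, and so becomes active, when AP20187 binds 2 copies of it at once, with no stress in the endoplasmic reticulum (ER). All 4 arrays came from male C57BL/6J mice that carry the transgene, including the controls. The BAT AP20187 group holds arrays 1 and 2, from mice injected intraperitoneally with 100 ng/g of the ligand 12 h before collection. The BAT vehicle group holds arrays 2 and 3, from mice that received 4% ethanol, 10% PEG-400 and 1.75% Tween-20 in water. Their injection was also 12 h before collection. The transgene is written mAP::Fv2E-PERK, and the labels spell out neither the promoter nor the cells in which it is active. Per the protocol muscles were taken, whereas the labels name the tissue of these arrays as BAT. The study's other arrays, used here for the check of the tissue and for the spread in the fit, are white fat of Fv2E-PERK transgenic mice (2 vehicle, 3 AP20187) and of untreated wild-type mice (3). No array of brown fat from wild-type mice was among those used here, so an effect of the ligand without the transgene cannot be told apart from an effect of the kinase. A further array titled as BAT vehicle was left out because its source name says white adipose tissue (WAT). Whether the arrays come from separate animals is not stated, so p-values reflect only how far these arrays differ, which may be technical.

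PERK is 1 of the kinases that phosphorylate the translation factor eIF2α. Phosphorylation lowers general protein synthesis and favours translation of the transcription factor ATF4, and this programme is called the integrated stress response (ISR). ATF4 and its partner CHOP raise genes for amino acid synthesis and transport, for charging of tRNA and for hormones such as FGF21 and GDF15. Brown fat burns lipid for heat through the mitochondrial uncoupling protein UCP1, and stressed fat and muscle are known to release FGF21 and GDF15.

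Levels below are log2 signals, each set relative to the 75th percentile of its own array. The label of the tissue was checked first. Ucp1 lay between 9.66 and 10.42 on the 4 arrays, against -7.46 to -3.69 on the 8 white fat arrays of the study. Zic1 and Lhx8, transcription factors that mark brown fat, were likewise higher on every BAT array than on any WAT array. The array left out measured -4.82 for Ucp1, within the range of white fat. Between 46.4% and 49.0% of spots were well above background on the 4 arrays, and no spot was saturated. All 4 arrays shared 1 slide. Their 75th percentile lay at 6.88 to 7.30 on the log2 scale, below the 8.11 to 8.88 of the white fat arrays.

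Skeletal muscle signal was uneven. The mean over 15 of 15 muscle markers was 0.90 on vehicle array 2, 4.94 on vehicle array 3, 4.15 on AP20187 array 1 and 3.32 on AP20187 array 2. Vehicle array 3 was thus the highest and vehicle array 2 the lowest, with the AP20187 arrays between them, and no marker separated the groups. In whole tissue, fewer cells of a type and less RNA per cell cannot be told apart. Vehicle array 3 also had the highest means of macrophage markers (2.12, the other arrays 1.03 to 1.39), lymphocyte markers (0.37, the others -0.84 to -0.69) and matrix genes (3.67, the others 2.99 to 3.16). Adipocyte genes averaged 6.46 to 6.66 on the 4 arrays. None of 8 epididymal markers passed the filter on dim probes, and albumin (Alb) lay at -5.84 to -5.50, near the lowest levels measured.

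**Figure D1:**
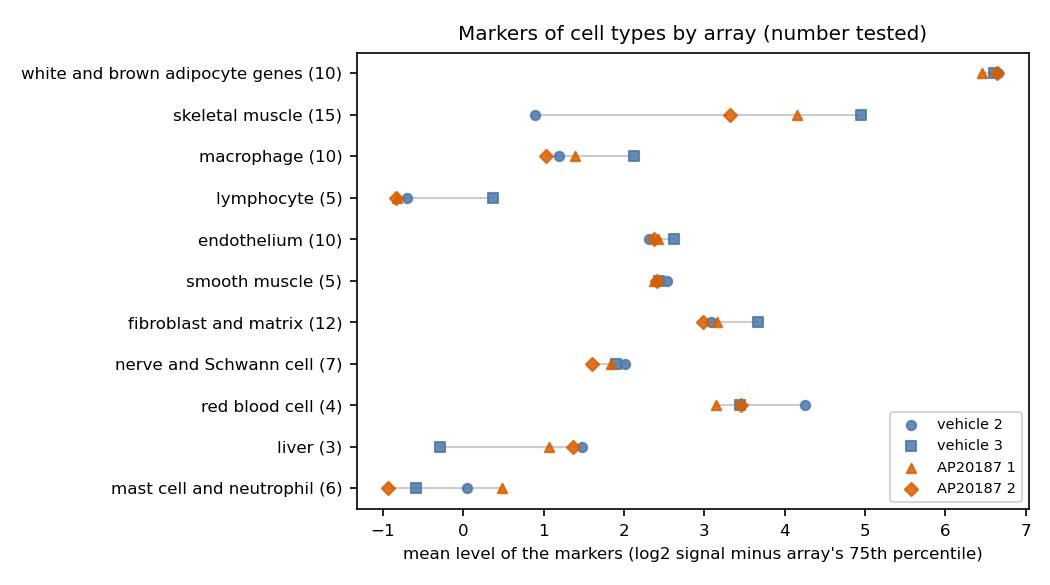
Mean level of each list of cell type markers on the 4 brown fat arrays, with the number of markers tested in brackets. Vehicle arrays are blue, AP20187 arrays are orange, and grey lines span the 4 values. Skeletal muscle spans 0.90 to 4.94 with both AP20187 arrays between the vehicle arrays, whereas adipocyte genes span 6.46 to 6.66.

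The comparison asked which genes changed in brown fat of the transgenic mice after the ligand that is meant to activate Fv2E-PERK. The files hold no measure of PERK activity. Of 21373 features tested, 3 passed (limma, Benjamini-Hochberg adjusted p under 0.05), which is 0.0140%, and all of them rose. A further reading of the same data rests on whether both AP20187 arrays lay above, or below, both vehicle arrays. This held upward for 17.1% and downward for 21.9% of all features, and with at least a 2-fold change for 1.76% and 1.65%. The median change of all features was -0.03 on the log2 scale. With 2 arrays against 2, an exact two-sided permutation test of a single value cannot give a p below 0.333, so single genes outside the fit carry no such test. In the figure of changes by list, 23 of the 24 lists hold changes on both sides of 0, those of the ISR included, and the medians of ISR transcription factors, effectors, amino acid synthesis and snoRNA host genes lie farthest to the right.

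**Figure D2:**
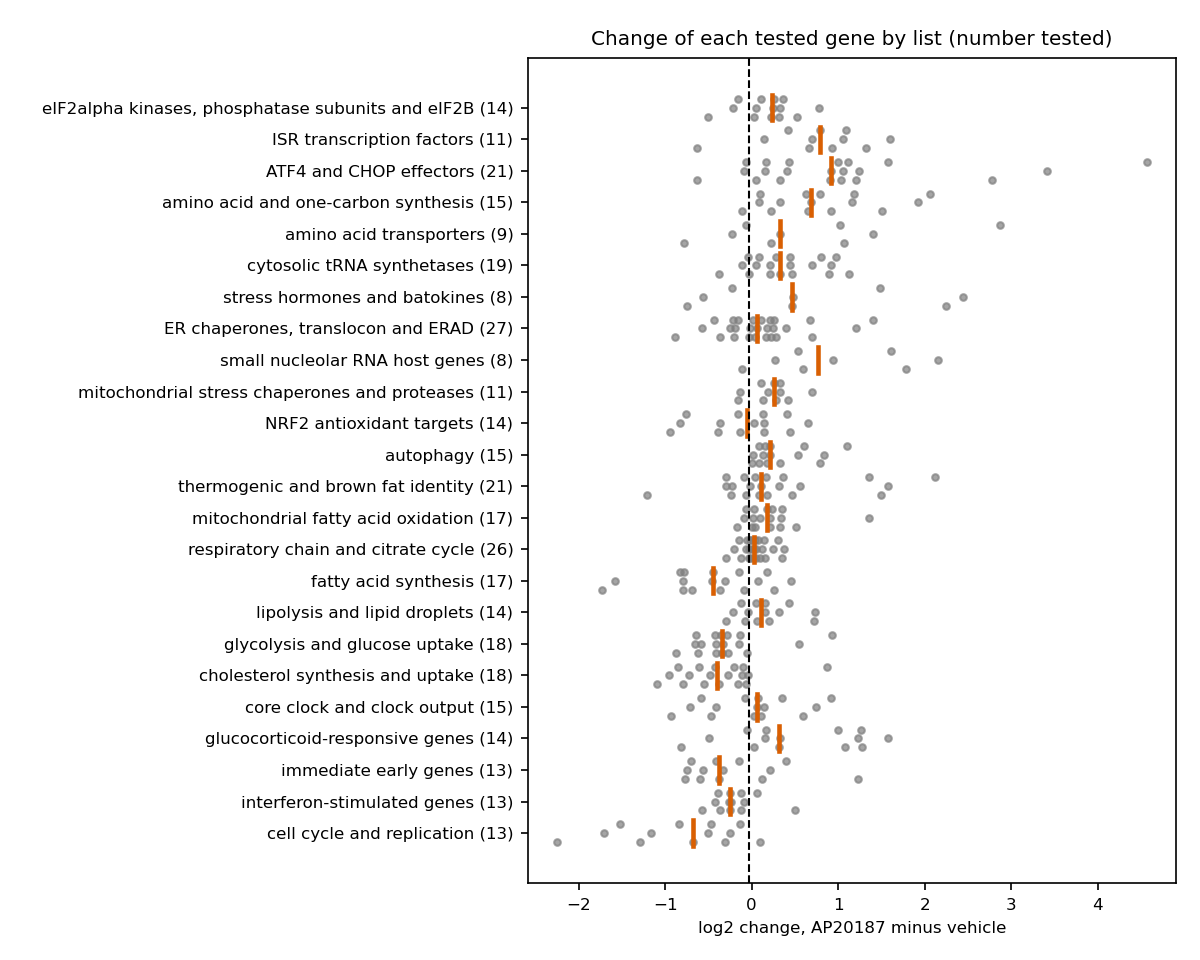
Log2 change (AP20187 minus vehicle) of each tested gene, 1 grey point per gene, for the 24 pathway lists with the number tested in brackets. Orange bars are list medians and the dashed line is the median of all 21373 features, at -0.03; the effectors of ATF4 and CHOP have a median of 0.92 and reach 4.57 for Trib3.

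The only named gene past the threshold was Snhg12, a long noncoding RNA whose introns hold small nucleolar RNAs (snoRNAs). It measured 1.27 and 1.24 on the vehicle arrays and 3.19 and 3.62 on the AP20187 arrays. The groups lay far apart relative to their spread, at 1.25 ± 0.02 and 3.41 ± 0.31 (SD, n = 2 each). This was a 4.45-fold rise (log2 change 2.15, SE 0.21, limma adjusted p = 0.0295). Without vehicle array 2 the adjusted p was 0.103 and without AP20187 array 2 it was 0.0918, at log2 changes of 2.17 and 1.94. The other 2 features past the threshold have no gene name here. Probe A_52_P325116 measured 0.69 and 1.12 with vehicle and 3.59 and 3.51 after AP20187, a 6.27-fold rise (SE 0.25 log2 units, adjusted p = 0.0451). Its adjusted p was 0.114 without vehicle array 2, 0.0950 without AP20187 array 1 and 0.112 without AP20187 array 2. Probe A_55_P2098788 was not well above background on either vehicle array and passed the filter on dim probes only through the AP20187 group. Its measured means were -5.91 and -3.03. The limma adjusted p of 0.0275 belongs to this measured log2 change of 2.88 (3.02 without vehicle array 2). As a bound, the probe was at least 1.74-fold higher after AP20187, and that p does not test the bound. Such a bound compares the mean of the brighter group with a floor, which on each array is the dimmest signal still well above background or, where larger, the signal of the probe. It holds only for the scaling used here. With another background correction and scaling (normexp and quantile), the log2 change of this probe was 0.63 against 2.88. It did not pass there (limma adjusted p = 0.214). The other changes given as bounds below were also smaller there.

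Host genes of snoRNAs lay higher as a list. Of 18 listed, 8 are named on the array and all of these were tested. The AP20187 arrays lay above both vehicle arrays for 5 of 8, Snhg12 among them, against the 17.1% of all features. They lay below for 0, against 21.9%. This list, like the others, was chosen with earlier results of these data known, so such shares are a description and no test. The list had a median change of 0.76. Snhg1 measured -0.50 and -0.37 with vehicle and 1.49 and 1.22 after AP20187 (3.46-fold, SE 0.28 log2 units, adjusted p = 0.169). For Snhg16 the levels were 1.02 and 1.31, then 3.23 and 2.31 (3.05-fold, SE 0.46). Snhg6 measured 4.07 and 3.46, then 4.67 and 4.72, and Snhg7 0.57 and 0.51, then 1.11 and 1.15. These 4 did not pass the test, although their groups did not overlap. Snhg3, Snhg10 and Snhg17 overlapped between the groups, and Snhg17 had the lowest change of the list, -0.11. The mean of the 8 genes was 0.89 and 0.81 on the vehicle arrays and 1.90 and 1.74 on the AP20187 arrays. With the muscle mean as a covariate the median change was 0.80, and Snhg12 changed by 2.19 (limma adjusted p = 0.0897). Within a group, muscle means differed most between vehicle arrays 2 and 3 (0.90 and 4.94), so that fit leans on them. The part of muscle signal was not tested.

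**Figure D3:**
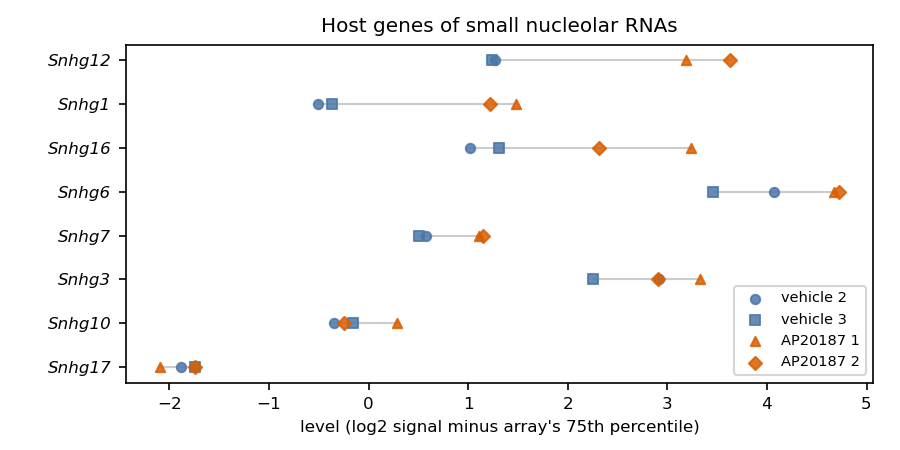
Level of each of 8 snoRNA host genes on the 4 brown fat arrays, vehicle in blue and AP20187 in orange, with grey lines spanning the 4 values. Snhg12, Snhg1, Snhg16, Snhg6 and Snhg7 have both AP20187 arrays to the right of both vehicle arrays, and Snhg3, Snhg10 and Snhg17 overlap.

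Genes that ATF4 binds often carry a composite site that joins a C/EBP and an ATF half-site. The letters TGATGNAA (N is any base) were searched on both strands in the 250 bases before each gene's start, in RefSeq promoters of GRCm38.p6. They occur in 3.91% of 27025 genes and in 16 of the 75 genes of the 6 ISR lists that have a promoter entry (transcription factors, effectors, amino acid synthesis, amino acid transport, tRNA synthetases, hormones). The promoters printed below belong to the 8 of these genes whose AP20187 arrays lay above both vehicle arrays, and to Atf3 and Fgf21, whose groups overlapped. Each is written in the direction of the gene with the match in capitals.
Chac1, chr2:119351033-119351072, plus strand: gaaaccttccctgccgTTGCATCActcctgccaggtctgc
Herpud1, chr8:94386301-94386340, plus strand: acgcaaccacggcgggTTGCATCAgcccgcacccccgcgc
Vldlr, chr19:27216804-27216843, plus strand: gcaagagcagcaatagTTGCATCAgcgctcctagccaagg
Nupr1, chr7:126625557-126625596, minus strand: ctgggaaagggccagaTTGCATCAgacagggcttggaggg
Jdp2, chr12:85599367-85599406, plus strand: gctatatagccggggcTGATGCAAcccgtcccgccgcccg
Asns, chr6:7693210-7693248, minus strand: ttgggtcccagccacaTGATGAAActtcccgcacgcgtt
Tars, chr15:11399659-11399689, minus strand: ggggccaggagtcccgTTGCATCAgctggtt
Inhbe, chr10:127352006-127352045, minus strand: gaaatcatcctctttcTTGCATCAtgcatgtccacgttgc
Atf3, chr1:191183420-191183459, minus strand: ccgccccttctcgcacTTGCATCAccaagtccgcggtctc
Fgf21, chr7:45615606-45615645, minus strand: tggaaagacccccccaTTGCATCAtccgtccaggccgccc

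In Chac1 the match begins 193 bases before the start, in Nupr1 and Atf3 110, in Jdp2 33 and in Asns 23. Among tested genes of the 6 lists, 8 of 14 with the match and 24 of 51 without it had AP20187 arrays above both vehicle arrays. Over all tested genes with a promoter entry the shares were 23.3% of 258 with the match and 19.7% of 9846 without it. Trib3 and Ddit3 had no match in this window.

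The list around eIF2α phosphorylation holds its kinases, phosphatase subunits, subunits of the factor eIF2B, eIF2α itself, Dnajc3 and Nck1. Of its 14 members, 0 passed the test and 0 separated the groups by 2-fold or more. Eif2ak3, the gene of PERK itself, measured 0.72 and 0.68 with vehicle and 0.96 on both AP20187 arrays (1.20-fold, SE 0.17 log2 units, adjusted p = 0.793). It is not known whether the probe binds RNA of the transgene, so the value is no check of it. Of the 14 members tested, 2 lay higher and 3 lower without overlap, close to the 17.1% and 21.9% of all features. Ppp1r15a, which encodes the stress-induced phosphatase subunit GADD34, had the largest change of the list, 0.77, with overlap: 3.14 and 2.35 with vehicle, 2.57 and 4.46 after AP20187. Eif2ak2, the kinase PKR, measured 0.27 and 0.37, then -0.23 and -0.14. The list median of 0.23 became -0.02 without vehicle array 3 and -0.01 without AP20187 array 2.

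Transcription factors of the ISR lay higher in 10 of 11 members tested, of 12 listed. For 6 of 11 the AP20187 arrays lay above both vehicle arrays and for 0 below, against 17.1% and 21.9% of all features. The median change was 0.79, and 0 members passed the test singly. Ddit3, which encodes CHOP, measured 2.19 and 1.87 with vehicle and 3.04 and 4.22 after AP20187, so that the groups did not overlap but array 2 lay well above array 1 (3.03-fold, SE 0.46 log2 units, adjusted p = 0.367). Nupr1, a small stress-induced cofactor, had the tightest groups, 4.67 and 4.79 against 6.12 and 6.00 (2.51-fold, SE 0.31, adjusted p = 0.277). Jdp2, a bZIP repressor, measured 0.98 and 0.82, then 1.63 and 2.35 (2.13-fold), and Nfil3, another bZIP factor, 3.16 and 2.96, then 4.50 and 3.73 (2.08-fold). Atf5, itself induced through ATF4, measured 8.02 and 7.73, then 8.03 and 9.11. Its AP20187 array 1 lay nearly level with vehicle array 2, so it is only narrowly among the 6.

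Atf4 did not separate the groups. Its levels were 7.50 and 6.13 with vehicle and 7.26 and 8.23 after AP20187 (1.91-fold, SE 0.43, adjusted p = 0.640). Atf3, a target of both ATF4 and other stress pathways, was the 1 member with a negative change, at 0.12 and -0.14, then -1.17 and -0.11. Foxo3 was not well above background on both arrays of either group.

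Effectors that act below ATF4 and CHOP included the largest change among named genes with an unadjusted p under 0.05 and no overlap. Trib3, a pseudokinase that feeds back on ATF4 and CHOP, measured 2.79 and 2.34 with vehicle and 6.26 and 8.01 after AP20187. Both AP20187 arrays lay well above both vehicle arrays, but they also differed from each other (SD 1.24, n = 2). The change was 23.7-fold (log2 4.57, SE 0.62) and did not pass the test (adjusted p = 0.128). Trib3 was lowest on vehicle array 3, where muscle signal was highest, and its change with the muscle mean as a covariate was 4.65. The part of muscle signal in the change of Trib3 was not tested. Without AP20187 array 1 the change was 5.44 and passed. Chac1, which degrades glutathione, measured 0.03 and -0.97, then 2.06 and 3.83 (log2 change 3.42, SE 0.60, adjusted p = 0.228). Gadd45a, a growth arrest gene, measured -1.26 and -0.49, then 0.53 and 3.29 (6.89-fold, SE 0.75). The larger value lay on AP20187 array 2 for all 3 genes.

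Further members separated the groups by smaller amounts. Sesn2, which restrains the kinase mTORC1, measured 1.44 and 1.47 with vehicle and 2.24 and 2.79 after AP20187 (2.08-fold, SE 0.26). Trp53inp1, a factor of autophagy and cell death, measured 1.44 and 1.78, then 2.50 and 3.19 (2.36-fold, SE 0.28). Cdkn1a, the cell cycle inhibitor p21, measured 3.62 and 2.51, then 4.56 and 4.72 (2.98-fold, SE 0.61). Vldlr, a lipoprotein receptor, lay at 5.37 and 5.02, then 6.06 and 6.33, and Herpud1, which acts in ER-associated degradation, at 4.42 and 3.76, then 5.41 and 5.20. Xpot, an exporter of tRNA, lay at 1.70 and 1.58, then 2.2 and 2.91. In all, 12 of 21 members tested, of 25 listed, lay higher without overlap and 0 lower, against 17.1% and 21.9% of all features. Of them 8 differed by at least 2-fold, against 1.76% of all features. The median change was 0.92 and 0 members passed the test.

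Not every effector followed. Tnfrsf12a, a receptor for the cytokine TWEAK, had the lowest change, -0.63, and was lowest on AP20187 array 1, with 3.16 to 4.79 on the other arrays. Ddit4, an inhibitor of mTORC1 that glucocorticoids also raise, was high on AP20187 array 1 at 6.20 and low on AP20187 array 2 at 3.20, with vehicle at 4.61 and 3.96. Vegfa and Ndrg1 changed by 0.05 and -0.09. Stc2, Pmaip1, Bcl2l11 and Adm2 did not pass the filter on dim probes.

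**Figure D4:**
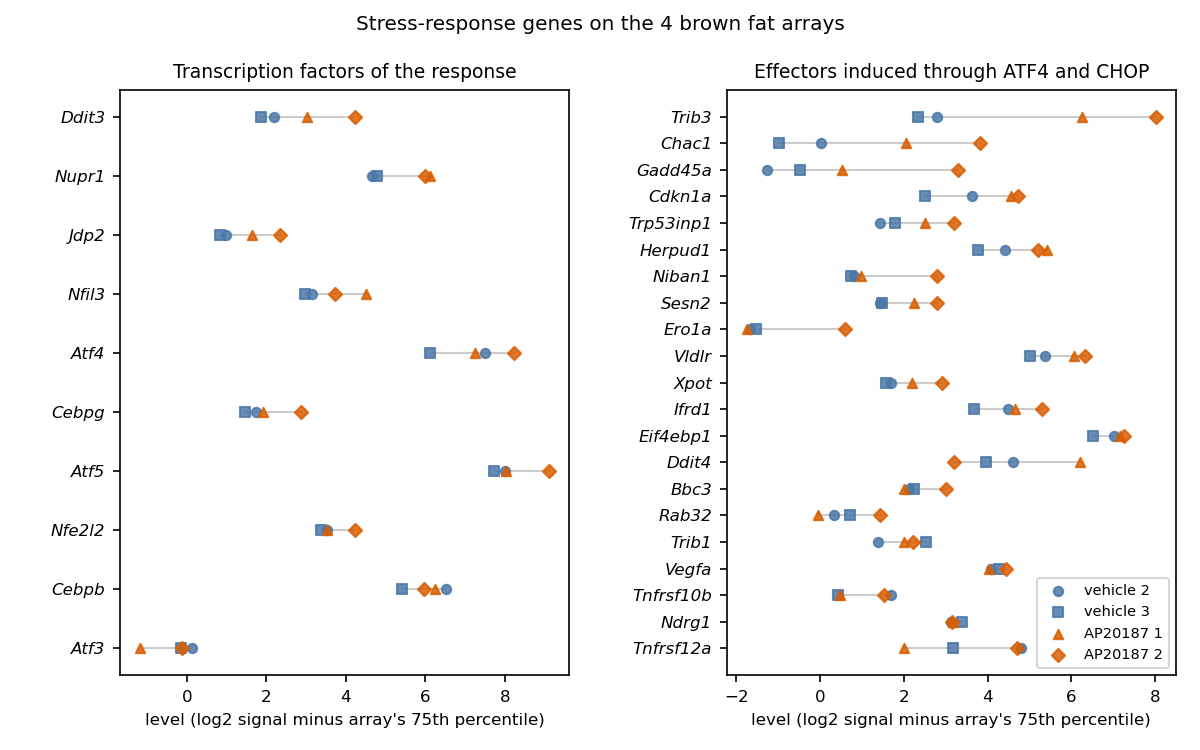
Levels of 10 of 11 ISR transcription factors (left) and 21 effectors (right) on the 4 brown fat arrays, ordered by their change, with vehicle in blue, AP20187 in orange and grey lines spanning the 4 values. Trib3, Chac1 and Gadd45a show the widest separation, and AP20187 array 2 lies above array 1 in these genes and in Ddit3.

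Genes of amino acid and one-carbon synthesis lay higher for 14 of 15 members tested, of 18 listed, and 0 passed the test. Aldh1l2 and Pck2 passed the filter on dim probes only through the AP20187 group. Of the 13 members well above background in both groups, 5 lay higher without overlap and 0 lower, against 17.1% and 21.9% of all features. Asns, asparagine synthetase, measured 5.51 and 4.80 with vehicle and 5.86 and 6.76 after AP20187 (2.23-fold, SE 0.41 log2 units, adjusted p = 0.494). Cth, which makes cysteine from cystathionine, measured -2.50 and -0.84, then -0.81 and 1.60 (4.17-fold, SE 0.80). Mthfd2, of the mitochondrial folate cycle, measured -1.76 and -1.45, then -0.98 and 1.61 (3.78-fold, SE 0.94). Cbs, the enzyme before Cth, measured -1.35 and -2.28, then 0.05 and -0.67 (2.84-fold). Psat1 and Phgdh of serine synthesis overlapped between the groups, at changes of 1.19 and 0.63. Psph and Shmt1 changed by 0.09 and -0.11. The median over 15 members was 0.68, and 0.06 without AP20187 array 2. Over the 13 members it was 0.80.

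Among amino acid transporters, 9 of 12 were tested, 4 lay higher without overlap and 1 lower, against 17.1% and 21.9% of all features. Slc6a9, the glycine transporter GLYT1, measured 0.92 and 0.57 with vehicle and 2.78 and 4.45 after AP20187 (7.32-fold, SE 0.63, adjusted p = 0.268). Slc3a2, the heavy chain shared by several transporters, measured 3.93 and 3.62, then 4.52 and 5.18 (2.11-fold, SE 0.28). Its light chain partner Slc7a5 measured -1.55 and -1.05, then -1.54 and -1.52, a change of -0.23 that was 0.58 with the mean of the probes of the gene and 0.02 without vehicle array 3. Slc1a4, a carrier of neutral amino acids, measured 3.91 and 3.69, then 5.17 and 4.47 (2.03-fold, SE 0.27). Its levels over the 13 arrays correlated above 0.99 with those of Btn1a1, a gene of milk fat secretion, and 80 tested features, Btn1a1 and Slc1a4 among them, shared this pattern. Slc7a11, the cystine carrier, lay between -6.10 and -5.72 on the 4 arrays and was not tested. The list median of 0.32 was 0.04 without AP20187 array 2 and 0.82 without vehicle array 2.

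Cytosolic tRNA synthetases attach amino acids to tRNA. Of 20 listed, 19 were tested, and 8 lay higher without overlap and 0 lower, against 17.1% and 21.9% of all features. Eprs, for glutamate and proline, measured 0.93 and 0.98 with vehicle and 1.72 and 2.44 after AP20187 (2.19-fold, SE 0.24, adjusted p = 0.267), the 1 member with a change of at least 2-fold. Cars measured 3.63 and 2.93, then 3.79 and 4.73, and Iars 2.59 and 2.42, then 2.80 and 4.05. Lars measured 2.91 and 2.79, then 3.28 and 4.21, and Tars 3.18 and 2.83, then 3.36 and 4.25. In these 4 genes AP20187 array 1 lay just above the higher vehicle array and array 2 well above it. Farsa, Farsb, Hars and Qars had changes below 0. The list median was 0.33, and it was 0.08 without AP20187 array 2 and 0.56 without AP20187 array 1.

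Secreted factors of the list were uneven between the AP20187 arrays. Gdf15, a hormone of cell stress that lowers food intake, measured -1.88 and -0.62 with vehicle and 0.13 and 2.24 after AP20187 (log2 change 2.44, SE 1.02, adjusted p = 0.592). The groups did not overlap, but their spread was wide. For Fgf21, a hormone of fasting and mitochondrial stress, the levels were -0.42 and -2.45, then -1.36 and 2.98. Only AP20187 array 2 was high, array 1 lay between the vehicle arrays, and the change of 2.25 was 0.08 without AP20187 array 2. Angptl6, a secreted factor of energy expenditure, separated the groups at 1.90 and 1.36, then 2.61 and 3.62 (2.80-fold, SE 0.33, adjusted p = 0.275). Metrnl and Nrg4, secreted by thermogenic fat, lay lower without overlap, at changes of -0.56 and -0.22, and Bmp8b overlapped. In all 8 of 11 members were tested, with a median change of 0.47.

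The lists that lay above vehicle were not the same on both AP20187 arrays; this difference was not tested. Over all features, AP20187 array 1 lay above both vehicle arrays in 30.0% and AP20187 array 2 in 32.2%. For effectors of ATF4 and CHOP these counts were 13 and 16 of 21, for amino acid synthesis 7 and 13 of 15, and for tRNA synthetases 10 and 14 of 19. For snoRNA host genes they were 7 and 5 of 8, and for autophagy genes 9 and 6 of 15. Glucocorticoid-responsive genes gave 8 and 3 of 14. Among these Fkbp5, a chaperone of the glucocorticoid receptor, measured 3.11 on AP20187 array 1 and 0.65 to 1.02 on the others. Mt1 and Mt2, metallothioneins, measured 9.62 and 8.45 on that array, against 7.55 to 7.89 and 5.52 to 6.08 on the others. Klf9, a further gene of that list, separated the groups at 3.21 and 2.67, then 3.99 and 4.05 (2.12-fold, SE 0.24, adjusted p = 0.275). Of the 14 members tested 2 lay higher without overlap and 0 lower, against 17.1% and 21.9% of all features. Changes were above 0 in 11 of 14, and Dusp1 had the lowest, -0.81.

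Chaperones and degradation factors of the ER, which are raised mainly through ATF6 and XBP1 when proteins misfold, did not move as a list. Of 27 tested, 7 lay higher and 7 lower without overlap, against 17.1% and 21.9% of all features, and the median change was 0.06. Hspa5, which encodes BiP, measured 6.14 and 6.00 with vehicle and 5.80 and 5.96 after AP20187. Calr, calreticulin, measured 4.39 and 4.48, then 3.93 and 3.80, and Manf 2.55 and 2.71, then 1.91 and 1.58. Sel1l and Herpud1, both of ER-associated degradation, lay higher without overlap, with Sel1l at a mean of 1.04 with vehicle, then 1.54 and 1.93 (1.62-fold, SE 0.17, adjusted p = 0.300). Derl3, of the same degradation pathway, had the largest change of the list, at -3.28 and -3.04, then -1.08 and -2.42 (log2 change 1.41, SE 1.84, adjusted p = 0.953). Its level was low, and the SE holds the spread of white fat arrays. Xbp1 overlapped, at a change of 0.24. Mitochondrial chaperones and proteases had 3 of 11 members higher without overlap and 0 lower, with a median of 0.25 that was -0.03 without vehicle array 3. Antioxidant targets of NRF2 had 0 of 14 higher and 2 lower, with a median of -0.06.

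Autophagy genes had a change above 0 in 15 of 15 members tested, with a median of 0.21, and 0 passed the test. Sqstm1, the cargo receptor p62, measured 3.18 and 2.42 with vehicle and 3.65 and 4.16 after AP20187 (2.15-fold, SE 0.30, adjusted p = 0.346). Gabarapl1, which coats autophagosomes, measured 7.30 and 7.01, then 8.20 and 7.80 (1.79-fold, SE 0.21, adjusted p = 0.300). With Pik3c3 and Atg16l1 these made up the 4 of 15 members that lay higher without overlap, against 17.1% of all features. Lower without overlap were 0, against 21.9%. All 15 were lowest on vehicle array 3, whose mean over the list was 2.66 against 3.15 to 3.32 on the other arrays, and the median was 0.00 without that array.

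Among genes of heat production and brown fat identity, 0 of 21 passed the test. Ucp1 measured 10.42 and 9.66 with vehicle and 9.66 and 10.25 after AP20187 (log2 change -0.09, SE 0.68). Ppargc1a, the coactivator PGC-1α, measured 1.27 and 2.15, then 1.63 and 2.52. Of these members 3 lay higher and 1 lower without overlap, against 17.1% and 21.9% of all features, so the share of higher members was near that of all features. The median change was 0.11 (0.09 to 0.29 with any array left out). Adrb3, the β3-adrenergic receptor, was the lower one, at 6.81 and 6.71, then 5.33 and 5.77 (2.32-fold lower, SE 0.39, adjusted p = 0.429). Acot2, a mitochondrial acyl-CoA thioesterase, measured 1.18 and -0.11, then 1.74 and 2.05 (2.57-fold, SE 0.42). Slc27a2, an acyl-CoA synthetase, measured 4.44 and 3.78, then 6.30 and 5.08 (log2 change 1.58, SE 0.78), and Zic1 was the other higher one. Dio2, which activates thyroid hormone, differed widely between the AP20187 arrays, at 0.50 and 1.54, then -1.78 and 3.33. Elovl3, a fatty acid elongase of brown fat, was at -1.06 on vehicle array 3 and at 3.52 to 6.10 on the other arrays. Ckmt2, a mitochondrial creatine kinase that muscle also expresses, was low only on vehicle array 2 (-1.60, the others 1.77 to 3.02), the array with the least muscle signal, and the part of muscle in this was not tested.

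Lipid synthesis differed widely within both groups. The mean of 17 fatty acid synthesis genes was 7.38 and 6.13 with vehicle and 5.82 and 6.74 after AP20187, and that of 18 cholesterol genes 3.31 and 2.15, then 1.91 and 2.78. In both lists vehicle array 2 was highest and AP20187 array 1 lowest. The medians of -0.44 and -0.40 turned to 0.31 and 0.11 without vehicle array 2, and were -0.07 and 0.04 without AP20187 array 1. Acly, which makes cytosolic acetyl-CoA, measured 10.51 and 9.08, then 6.64 and 9.49, so that its change of -1.73 (SE 0.80) came mostly from AP20187 array 1. Glycolysis genes lay lower for 16 of 18 members, 9 of them without overlap, against 21.9% of all features. Pkm, pyruvate kinase, measured 7.84 and 7.54 with vehicle and 6.98 and 7.09 after AP20187 (1.57-fold lower, SE 0.26, adjusted p = 0.550). Gpi1 and Hk2, of the first steps, were 1.56-fold and 1.83-fold lower, also without overlap. The glycolysis median of -0.35 was -0.14 without vehicle array 2 and 0.28 with the array of contradictory labels added to vehicle. That array, with Ucp1 in the white fat range, had a glycolysis mean of 4.61, against 6.36 to 6.86 on the BAT arrays. Genes of fatty acid oxidation and of the respiratory chain had medians of 0.18 and 0.02, and these turned to -0.07 and -0.15 without vehicle array 3.

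**Figure D5:**
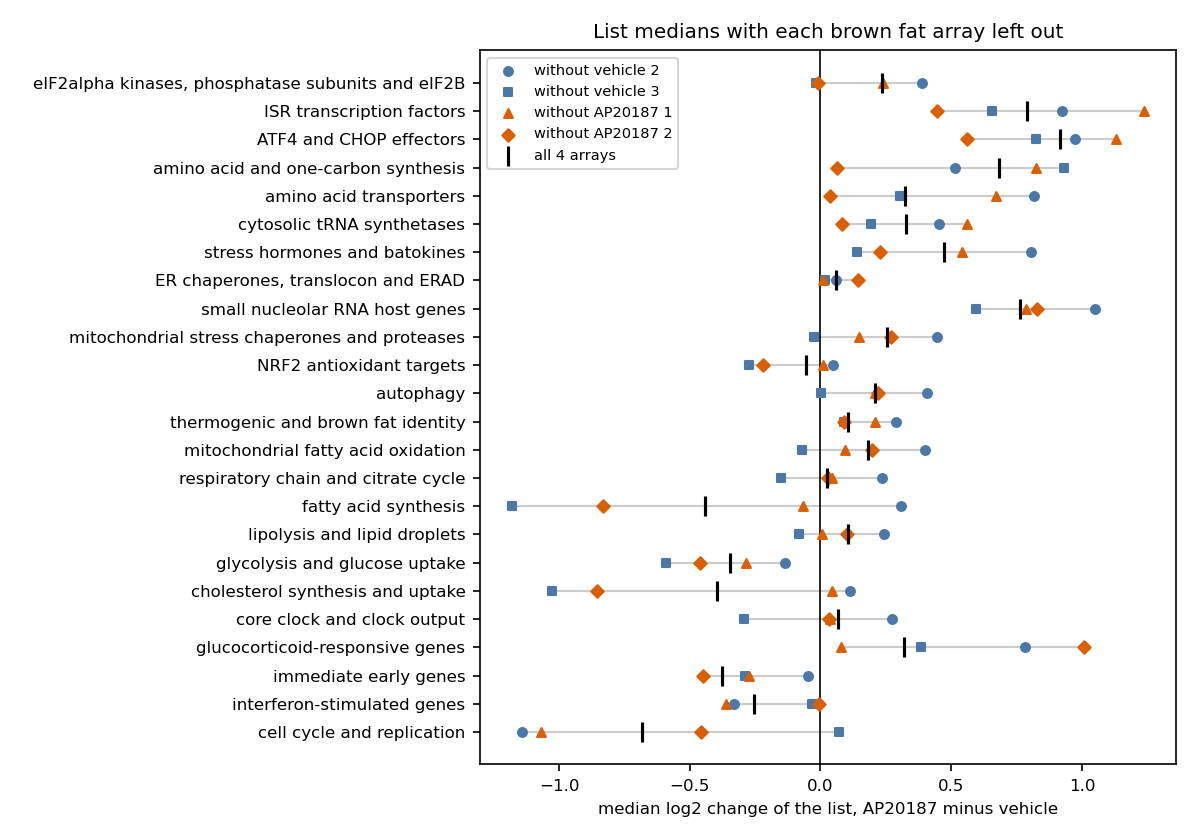
Median log2 change (AP20187 minus vehicle) of each of 24 lists with all 4 arrays (black bar) and with each array left out (coloured symbols), joined by grey lines. The medians of ISR transcription factors (0.45 to 1.24), effectors (0.56 to 1.13) and snoRNA host genes (0.59 to 1.05) stay above 0 with any array left out, whereas those of fatty acid synthesis (-1.18 to 0.31) and cell cycle genes (-1.14 to 0.07) cross it.

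Cell cycle genes had 12 of 13 changes below 0 and a median of -0.68, and 0 passed the test. Ccnb1 and Ccnb2 passed the filter on dim probes only through the vehicle group. Of the other 11 members 2 lay lower without overlap, against 21.9% of all features, and their median was -0.50. Ccnb1, a mitotic cyclin, measured -2.51 and -2.45 with vehicle and was not well above background on either AP20187 array (-3.83 and -5.62), at least 2.44-fold lower (adjusted p = 0.275). Its log2 change of -2.24 was -0.58 with normexp and quantile scaling. Mki67, a marker of dividing cells, measured 0.51 on vehicle array 3 and -2.68 to -2.58 on the other 3 arrays. Vehicle array 3 had the highest level in 12 of 13 members, and without it the median was 0.07. The same array had the highest macrophage and lymphocyte markers given above, and their part in the result was not tested. Of 19 listed genes, 6 did not pass the filter on dim probes.

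Of the lists of immediate early, interferon, clock and lipolysis genes, 0 of their members passed the test. The counts that follow are to be read against the 17.1% and 21.9% of all features without overlap. Immediate early genes had 3 of 13 members lower without overlap and 0 higher, with a median change of -0.38. This median was -0.05 without vehicle array 2 and 0.15 with the array of contradictory labels added to vehicle. That array, with Ucp1 in the white fat range, averaged 0.10 over these genes, against 0.82 to 1.22 on the BAT arrays. Jund, a member of the AP-1 family, measured 4.73 and 4.86 with vehicle and 3.86 and 4.18 after AP20187. Interferon-stimulated genes had 1 of 13 higher and 3 lower without overlap, with a median of -0.25, and 1 member passed the filter only through the vehicle group. Core clock and output genes had 4 of 15 higher and 2 lower, with a median of 0.07 that was -0.29 without vehicle array 3. Genes of lipolysis and lipid droplets had 2 of 14 higher and 1 lower, with a median of 0.11.

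Outside the lists, the largest changes upward among genes with an unadjusted limma p under 0.05 and groups without overlap included Gramd1b, a sterol carrier between membranes. It measured 0.10 and -0.20 with vehicle and 2.35 and 3.48 after AP20187 (7.79-fold, SE 0.35 log2 units, adjusted p = 0.0735), and passed without AP20187 array 1 (change 3.53). Unc93a was not well above background on either vehicle array and was at least 13.3-fold higher after AP20187, with measured means of -3.88 and 0.01 (adjusted p = 0.256). This bound did not hold under all settings. The log2 change of Unc93a was 3.88, but 1.95 with normexp and quantile scaling and 2.37 with the array of contradictory labels added to vehicle. The added array had Ucp1 in the white fat range. Sgk2, a kinase related to SGK1, measured -5.89 and -2.92, then 0.67 and -2.07. Tmem82 measured -3.52 and -5.43, then -1.25 and -1.93, and Extl1 was at least 2.92-fold higher. Levels of these 3 genes were low and uneven within the vehicle group. All 3 passed the filter on dim probes only through the AP20187 group. With normexp and quantile scaling the log2 changes of Sgk2, Tmem82 and Extl1 were 1.64, 1.07 and 0.67, against 3.70, 2.88 and 2.65. Trib3, Chac1, Slc6a9 and Gadd45a, given above, were also among the 10 largest.

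E2f2, a transcription factor of the cell cycle, had the tightest groups among the 10 largest changes downward. It measured 2.53 and 2.49 with vehicle and -0.47 and -0.35 after AP20187 (7.57-fold lower, SE 0.42, adjusted p = 0.140), and its change was -2.98 to -2.86 with any BAT array left out. Tfrc, the transferrin receptor, measured 1.39 and 1.91, then -2.69 and 0.81, for a change of -2.59 that was -4.33 without AP20187 array 2, where it passed, and -0.84 without AP20187 array 1. Atp4b, a subunit of the gastric proton pump, measured 3.57 and 2.78, then -2.31 and 2.16 (change -1.02 without AP20187 array 1), and Lfng, which modifies Notch, 0.97 and -0.14, then -2.12 and -1.89. Flrt1 measured -0.75 and -2.04, then -4.49 and -2.51. It passed the filter on dim probes only through the vehicle group, and its log2 change of -2.11 was -0.86 with normexp and quantile scaling. Brsk2, Atp8b4, Olfr513 and Prc1 were not well above background on either AP20187 array and were at least 2.13-fold, 1.70-fold, 4.70-fold and 3.60-fold lower, with adjusted p of 0.203 to 0.527. The bounds of Olfr513 and Prc1 rest on vehicle array 3, without which the log2 changes were -0.95 and -0.67. With normexp and quantile scaling the log2 changes of Brsk2, Atp8b4, Olfr513 and Prc1 were -0.69, -0.59, -0.91 and -0.90. Ccnb1, given above, is the tenth.

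Klf15 was chosen after its values were seen. This transcription factor of fasting and amino acid breakdown measured 0.53 and 0.70 with vehicle and 2.39 and 2.59 after AP20187 (3.68-fold, SE 0.26, adjusted p = 0.129). The groups lay far apart relative to their spread, with SDs of 0.12 and 0.14 (n = 2 each). In white fat of the same transgenic line its change after AP20187 was -0.82 (SE 0.24). The brown fat change minus the white fat change was 2.69 (SE 0.35, adjusted p = 0.0951). For Snhg12 the white fat change was -0.05 (SE 0.19) and the difference 2.2 (SE 0.28, adjusted p = 0.0951), and for Trib3 they were 0.70 (SE 0.56) and 3.87 (SE 0.83, adjusted p = 0.104). No feature passed the test of this difference (0 of 21373 by limma), and 3851 had an unadjusted p under 0.05. BAT and WAT arrays lie on different slides, so slide and tissue cannot be told apart there. The white fat changes also cross slides. WAT vehicle array 1 lay on slide 1, and WAT vehicle array 2 and the 3 WAT AP20187 arrays on slide 2.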

How the data were processed

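Total RNA of snap-frozen tissue was, per the labels' protocols, labelled with Cy3 from 150 ng per sample for Agilent arrays read in 1 colour. The deposited processed signal is an intensity, background-subtracted by Agilent Feature Extraction 10.7.1.1 per the file headers, with no scaling between arrays. From it, log2 minus the array's 75th percentile was computed, spots of a probe were averaged and outlier spots dropped. Probes well above background on every array of either BAT group entered, 1 probe per gene (highest mean). This left 21373 features, 12676 named through RefSeq records of GRCm38.p6. Of 55681 probes 26056 had a name. The 12 arrays of 5 groups (BAT and WAT of transgenic mice with either treatment, WAT of untreated wild-type mice) were fitted together with limma 3.58.1 (R 4.3.3), so an SE also holds the spread of white fat arrays, and p-values were adjusted over all features. On simulated data with 21373 features, 22% of 2-fold, 58% of 4-fold and 84% of 8-fold rises were recovered, with 5 false calls. The simulated noise was independent between features and the number of changes was set, so recovery in the real data can be lower. Members and lists were chosen with earlier results of these data known. Named were features past the threshold, the 10 largest rises and falls with unadjusted p under 0.05 and no overlap, and up to 5 members per list, except genes that are not reported here. Alternatives were other scalings, filters, probe rules and models, the 13th array, and each BAT array left out.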

Additional observations from a re-analysis of the deposited data

How the results depend on the processing

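The count of 3 features past the threshold became 1 with normexp and quantile scaling, 1 from the authors' value table and 1 with a stricter filter. It was 0 (limma) without a filter, with the filter over all 5 groups, on the 4 BAT arrays alone, with slide as a block, with the skeletal muscle mean as a covariate and with the 13th array added to vehicle, where 1361 to 2360 features had an unadjusted p under 0.05. Leaving out each BAT array gave 0 to 22: 0 without vehicle array 2 (2181 at an unadjusted p under 0.05), 22 without vehicle array 3, 11 without AP20187 array 1 and 4 without AP20187 array 2, of which 0, 3, 2 and 1 are among the 3. The median of ISR transcription factors was 1.05 with the muscle covariate and 0.45 to 1.24 with an array left out, and that of snoRNA host genes 0.59 to 1.05. With the 13th array added, 19 of 180 genes took the opposite sign, among them Pkm, Gpi1 and Nr4a2 (0.34, 0.26 and 0.25), Phgdh (-0.62), Psat1 (-0.21), Hk2 (0.07), Slc7a5 (0.05) and Ucp1 (4.87). The 13th array measured -4.82 for Ucp1, against 9.66 to 10.42 on the 4 BAT arrays and -7.46 to -3.69 on the white fat arrays. Adding it thus puts a Ucp1 level of the white fat range into the vehicle group. The causes were not tested. Of 35 lists, 14 kept the sign of their median under all 17 alternatives, among them both ISR lists and the host genes, and 16 turned when some array was left out. Some of the 17 could not turn a median. The 4 BAT arrays alone, another prior for the spread and slide as a block change only the spread, and left every median as it was. No paired analysis was possible because the 2 BAT groups share fewer than 2 replicate numbers. Precision is limited by there being 2 arrays a group, and probes near background give bounds.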

Other observations

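A block of features with 1 shared pattern stood out after the values were seen. Over the 13 arrays, 80 tested features, Btn1a1 itself included, correlated above 0.99 with Btn1a1, a gene of milk fat secretion. The points share arrays and scaling, and the correlation is a description. Of the 80, 54 have a name, and 1 (Slc1a4) is on a list used here. Their median level was 6.06 and 5.97 on the BAT vehicle arrays, 7.42 and 6.80 on the BAT AP20187 arrays and 3.49 to 4.41 on the WAT arrays, and the array with contradictory labels measured 3.69. Every one of them lay higher after AP20187 in brown fat, by 0.55 to 1.25 on the log2 scale, with a smallest adjusted p of 0.238. Btn1a1 itself measured 6.24 and 6.22 with vehicle and 7.68 and 7.08 after AP20187. The BAT arrays were part of the correlation, so the shared rise is no separate result. The 80 features make up 8.51% of the 940 features with an unadjusted p under 0.05 and a positive change, and 12 of the 60 named features of smallest p. Atxn7 (7.55 and 6.92 after AP20187, 6.05 and 5.98 with vehicle), Srek1 (8.09 and 7.57 against 6.80 and 6.69), Eya1 (8.27 and 7.79 against 7.10 and 6.97) and Bpifc (7.27 and 6.52 against 5.78 and 5.66) follow it. These genes have no known common function, and 74 of the 80 probes carry the A_55 prefix, against 47.6% of all tested features. What the probes share in sequence was not tested, since their sequences were not used here.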
